A study of Rattus norvegicus with 6 samples.

Results

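The laminin chain genes were followed in the rat epididymis, in a fraction of basal cells and a fraction of the remaining, non-basal cells. The epididymis is the coiled duct in which sperm mature. The members were listed by gene symbol, by a rule that does not use a measured value, as Lama2, Lama3, Lama4, Lama5, Lamb1, Lamb2, Lamb3, Lamc1 and Lamc3. Of these 9 genes, 8 had a probe set with a single gene symbol among the 18166 named genes, and Lamb1 was not analysed here. Both groups came from Sprague-Dawley rats aged 48 days with no treatment or genotype named in the labels, and were obtained by magnetic separation of epididymal cells. There were 3 arrays (Affymetrix RaGene 2.0 ST) per fraction, and values are log2 expression in RMA units, in which a difference of 1 is a doubling. Per the labels, 3 rats were used and the work was done in triplicate; which rat gave which array is not said, so the spread between arrays may be technical. They also do not name the surface molecule used for the separation.

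Laminins are secreted proteins of the basement membrane, the sheet on which an epithelium rests. Each is a trimer of an alpha, a beta and a gamma chain, joined through a coiled coil, and is named by its 3 chain numbers, so that laminin-521 holds alpha 5, beta 2 and gamma 1. The alpha chain carries the globular domains that bind integrins and dystroglycan, and the short arms of most chains link laminins into a network. In epithelia, alpha 3 and beta 3 are chains of hemidesmosomal laminin and laminin-511 is a common basement membrane form, whereas alpha 2 is typical of muscle and nerve and alpha 4 of blood vessels and mesenchyme.

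The fractions differed in the levels of most laminin chain transcripts. Lamb3, Lama3 and Lama5 were higher in the basal fraction, by 12.6-, 2.51- and 1.89-fold, while Lama2, Lama4, Lamc3 and Lamb2 were lower, by 13.9-, 5.84-, 3.07- and 1.54-fold. Lamb3 in 1 non-basal array and Lama2 in 1 basal array did not rise above a dim reference, the 95th percentile of 226 olfactory and vomeronasal receptor genes on the same array. With those values raised to the reference, the folds were 10.5 for Lamb3 and 13.5 for Lama2. Lamc1, the gamma chain shared by most laminins, did not pass the test. In all, 3 of the 8 measured chains were higher and 4 lower at a limma adjusted p under 0.05, 7 in either direction. Among all genes tested 14.9% were called, 7.71% as higher and 7.14% as lower. The fractions did not overlap in 7 of the 8 chains, against 32.9% of all genes. The median log2 difference of the chains was -0.38 and their median absolute difference 1.47, against 0.0034 and 0.17 over all genes. Because these are bulk fractions, fewer cells of a type and less RNA per cell cannot be told apart.

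**Figure D1:**
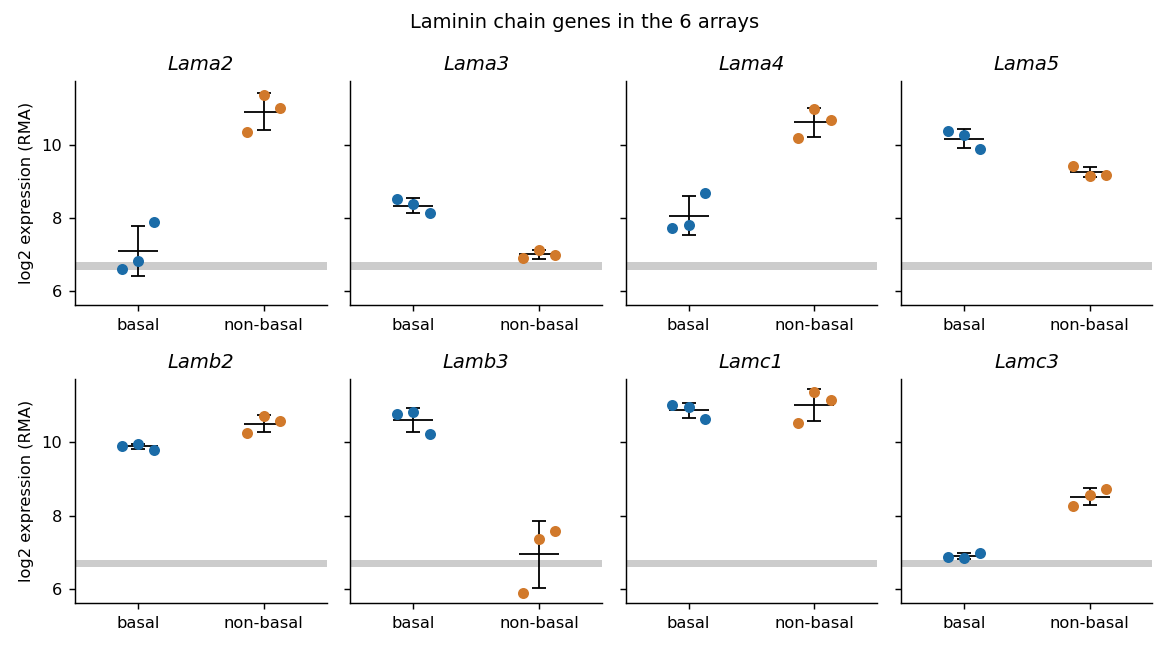
Log2 expression (RMA units, y axis) of 8 laminin chain genes in the 3 basal (blue) and 3 non-basal (orange) arrays, with points in the order of replicates 1 to 3, the mean as a bar and the SD as whiskers; the grey band is the range over arrays of the 95th percentile of olfactory and vomeronasal receptor genes. The fractions overlap in Lamc1 alone, the basal values of Lamc3 and 2 of the 3 basal values of Lama2 lie at or just above the grey band, and the lowest non-basal value of Lamb3 (5.90) lies below it.

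The start regions of the 2 chains with the highest differences, Lamb3 and Lama3, and of the 2 with the lowest, Lama2 and Lama4, are shown as the ends of the range of differences. Each sequence is the 250 bases before the start listed by RefSeq for build GRCr8, 5′ to 3′ on the gene's own strand, which is the plus strand for all 4. The windows are chr13:107362303-107362552 for Lamb3, chr18:3952517-3952766 for Lama3, chr1:19491896-19492145 for Lama2 and chr20:43946648-43946897 for Lama4. Capitals mark motif matches on either strand.
Lamb3: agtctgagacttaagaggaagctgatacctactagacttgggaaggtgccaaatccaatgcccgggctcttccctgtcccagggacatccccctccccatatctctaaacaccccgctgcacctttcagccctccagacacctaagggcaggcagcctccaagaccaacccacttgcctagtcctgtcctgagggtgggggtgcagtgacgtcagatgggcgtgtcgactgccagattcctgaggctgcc
Lama3: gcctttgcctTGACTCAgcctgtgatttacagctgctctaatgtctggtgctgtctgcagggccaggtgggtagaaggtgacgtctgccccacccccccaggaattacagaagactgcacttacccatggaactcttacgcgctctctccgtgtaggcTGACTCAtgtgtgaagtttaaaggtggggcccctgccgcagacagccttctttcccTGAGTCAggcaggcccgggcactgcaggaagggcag
Lama2: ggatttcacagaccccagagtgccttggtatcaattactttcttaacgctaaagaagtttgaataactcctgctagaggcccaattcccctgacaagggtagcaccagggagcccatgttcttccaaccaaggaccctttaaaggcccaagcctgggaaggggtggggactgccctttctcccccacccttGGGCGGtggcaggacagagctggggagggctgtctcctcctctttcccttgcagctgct
Lama4: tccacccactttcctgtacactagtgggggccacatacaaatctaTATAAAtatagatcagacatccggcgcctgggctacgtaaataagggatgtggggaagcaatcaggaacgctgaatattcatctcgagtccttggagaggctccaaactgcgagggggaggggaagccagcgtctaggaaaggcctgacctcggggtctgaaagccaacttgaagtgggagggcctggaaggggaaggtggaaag
The motifs searched were the AP-1 site TGANTCA, the GC box GGGCGG, the TATA box TATAAA and the p53 family half-site. The Lama3 window held 3 AP-1 matches, at 240 to 234, 92 to 86 and 36 to 30 bases before the start. Of the 33469 windows of this length, 6.34% held at least 1 AP-1 match and 5 held 3 or more. The Lamb3 window held no match to any of the 4 motifs. The Lama2 window held 1 GC box, a motif found in 30.5% of windows, and the Lama4 window 1 TATA box at 205 to 200 bases before the start, a motif found in 12.9%. In the other windows, Lama5 held 4 GC boxes, Lamc1 5, of which 2 overlapped by 1 base, and Lamc3 1, while none of the 7 held a p53 family half-site, found in 6.64% of windows. RefSeq lists 7 transcripts of Lama3, 8 of Lama2 and 2 of Lamb3, and each window lies before 1 of these starts. The Lama3 window lies inside the span of the gene. Sequences for 7 of the 8 measured chains were matched by symbol.

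Among the alpha chains, which set the receptor binding of a laminin, Lama2 fell furthest. Lama2, the chain of muscle and nerve laminins, lay at 6.61, 6.82 and 7.89 in basal replicates 1 to 3. In the non-basal replicates, in the same order, it reached 10.36, 11.35 and 11.00. The fractions did not overlap, and basal replicate 3 was the basal array nearest to the non-basal arrays. Its log2 difference, basal minus non-basal, was -3.80 ± 0.40 (SE; limma adjusted p = 0.00367), the 18th lowest of 18166 genes. Lama4, the chain of vessel laminins, read 7.72, 7.80 and 8.68 in the basal arrays against 10.19, 10.98 and 10.67 in the non-basal ones, again with basal replicate 3 closest to the other fraction. Its difference was -2.55 ± 0.32 (limma adjusted p = 0.00553). A second Lama4 probe set gave -2.50 ± 0.29 in a fit over all probe sets (limma adjusted p = 0.00953).

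The other 2 measured alpha chains of the set were higher in the basal fraction. Lama3, an epithelial alpha chain, lay at 8.51, 8.38 and 8.12 in the basal arrays and at 6.91, 7.14 and 6.98 in the non-basal arrays. Every basal array was above every non-basal array, with a difference of 1.33 ± 0.12 (SE; limma adjusted p = 0.00266). Lama5, the alpha chain of laminin-511 and laminin-521, was bright in both fractions, at 10.36, 10.27 and 9.87 against 9.42, 9.15 and 9.18. Its difference of 0.92 ± 0.15 had a limma adjusted p of 0.0127. That call was lost without basal replicate 1 (adjusted p = 0.0557), basal replicate 2 (0.0688), non-basal replicate 2 (0.0613) or non-basal replicate 3 (0.0705), with differences of 0.82 to 1.07 over the 6 fits that each left out 1 array.

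Of the beta chains, Lamb3 was higher in the basal fraction, with the highest difference of all 18166 genes as deposited. Lamb3, an epithelial beta chain, read 10.78, 10.83 and 10.23 in the basal arrays against 5.90, 7.38 and 7.58 in the others. The non-basal arrays lay near the dim reference, from -0.80 to 0.79 log2 units from it, with replicate 1 below it, and the non-basal SD of 0.92 was above the basal SD of 0.33. The difference was 3.66 ± 0.46 (SE; limma adjusted p = 0.00568), and 3.13 without non-basal replicate 1. With the value of that array raised to the dim reference the difference was 3.39, the 2nd highest over all genes treated in the same way. Lamb2, the beta chain of laminin-521 and related forms, was slightly lower, at 9.91, 9.96 and 9.80 against 10.25, 10.71 and 10.58. Its values did not overlap, and the difference was -0.62 ± 0.13 (limma adjusted p = 0.027). The Lamb2 call held only without non-basal replicate 1 (adjusted p = 0.00708); it was lost without basal replicates 1, 2 or 3 (0.0973, 0.0896 and 0.061) and without non-basal replicates 2 or 3 (0.08 and 0.114). RefSeq lists a Lamb2 pseudogene, Lamb2-ps1, and whether its transcripts reach this probe set was not tested.

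The gamma chains parted. Lamc1, the gamma chain of most laminins, read 11.03, 10.97 and 10.64 in the basal arrays against 10.53, 11.37 and 11.17 in the non-basal ones, so that the fractions overlapped. Its difference was -0.15 (95% CI -0.72 to 0.42; limma adjusted p = 0.713), and its sign turned to 0.027 without non-basal replicate 2. Lamc3, a gamma chain of few laminins, lay at 6.88, 6.84 and 6.99 in the basal arrays and 8.27, 8.57 and 8.72 in the non-basal arrays. Every basal array was below every non-basal array, with an SD of 0.082 against 0.23. The basal values lay only 0.11 to 0.22 log2 units above the dim reference. The difference was -1.62 ± 0.13 (limma adjusted p = 0.00217).

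**Figure D2:**
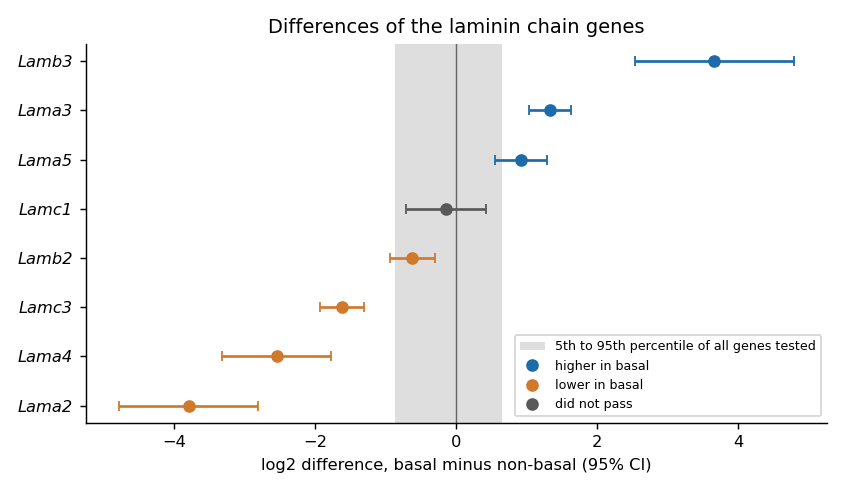
Log2 difference (basal minus non-basal, x axis) of the 8 laminin chain genes with 95% confidence intervals from limma; blue marks chains higher and orange chains lower at an adjusted p under 0.05, grey the chain that did not pass. The grey band runs from -0.86 to 0.65, the 5th to 95th percentile of all genes, and Lamb3, Lama3, Lama5, Lama2, Lama4 and Lamc3 lie outside it.

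In order of their log2 difference the chains ran from Lamb3 (3.66) through Lama3 (1.33), Lama5 (0.92), Lamc1 (-0.15), Lamb2 (-0.62), Lamc3 (-1.62) and Lama4 (-2.55) to Lama2 (-3.80). The 95% intervals overlapped between Lama3 (1.03 to 1.62) and Lama5 (0.55 to 1.29), between Lamc1 and Lamb2 (-0.94 to -0.31), between Lamc3 (-1.93 to -1.31) and Lama4 (-3.32 to -1.77), and between Lama4 and Lama2 (-4.78 to -2.81). The interval of Lamb3 (2.53 to 4.79) lay above that of Lama3. Calls of Lama2, Lama3, Lama4, Lamb3 and Lamc3 held with any 1 array left out.

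The balance between chains that compete for a place in the trimer was compared as log2 ratios within each array. Only the change of a ratio between fractions is given, since the levels of different probe sets cannot be set against each other. The ratio of Lama5 to Lama2 was 26.2-fold higher in the basal fraction (log2 change 4.71), that of Lama3 to Lama2 34.9-fold higher (5.12) and that of Lama5 to Lama4 11.0-fold higher (3.46). Among beta chains the ratio of Lamb3 to Lamb2, added after the data were seen, was 19.4-fold higher (4.28), and among gamma chains that of Lamc3 to Lamc1 was 2.78-fold lower (log2 change -1.47). Because basal Lama2 and non-basal Lamb3 lay near the dim reference, with 1 array of each not above it, these folds were also computed with values raised to the reference. They were then 25.4 for Lama5 to Lama2, 33.8 for Lama3 to Lama2 and 16.2 for Lamb3 to Lamb2. Non-basal Lama3 was only 0.19 to 0.55 log2 units above the reference, and basal Lamc3 only 0.11 to 0.22. None of the 5 ratios overlapped between the fractions. The exact two-sided permutation test gave p = 0.1 for each, before and after Benjamini-Hochberg adjustment over the 5, which is the smallest p that 3 against 3 arrays allow.

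Which trimers each fraction held transcripts for was read from the chains above the dim reference (6.59 to 6.79 over the arrays). The array medians of all probe sets, 6.63 to 6.70, were close to this reference, so many probe sets would exceed it. The share of all genes above it was not counted. The basal arrays were above it in all 3 replicates for Lama3, Lama4, Lama5, Lamb2, Lamb3, Lamc1 and Lamc3, and in 2 of 3 for Lama2. Lamc3 exceeded it there by only 0.11 to 0.22 log2 units. The non-basal arrays were above it in all 3 replicates for every chain except Lamb3, which exceeded it in 2 of 3, and Lama3 exceeded it by only 0.19 to 0.55. Lama1, a laminin alpha chain outside the 9 members, was near the reference in both fractions, 0.46 to 0.68 above it in the basal and -0.11 to 0.12 from it in the non-basal arrays. Its difference was 0.61 ± 0.076 (SE; limma adjusted p = 0.00556).

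Of 13 laminins with textbook chain compositions, 7 had all 3 chains measured, and 6 of the 7 had every chain above the dim reference in all arrays of the basal fraction and 6 in the non-basal fraction. Laminin-521 (alpha 5, beta 2, gamma 1) was covered in both, with its alpha chain higher, its beta chain lower and its gamma chain not passing. Laminin-321, laminin-421, laminin-423 and laminin-523 were covered in both too. Laminin-221 (alpha 2, beta 2, gamma 1) was covered in the non-basal arrays alone, because Lama2 was below the reference in 1 basal array, and laminin-121 in the basal arrays alone, because of Lama1. For laminin-423 all 3 chains were lower in the basal fraction. Laminin-111, laminin-211, laminin-213, laminin-311, laminin-411 and laminin-511 need Lamb1, which was not analysed here. Transcripts of the chains show neither that the trimers were assembled nor that they were secreted.

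The receptors through which cells bind laminins included more genes that were higher than lower. Among 15 receptor genes, 7 passed as higher and 2 as lower, and the list's median log2 difference was 0.41. Beside the counts of this list and of the lists below stand the shares over all genes tested, 7.71% called higher and 7.14% lower. Itgb4 and Itga6, which pair as the hemidesmosome integrin, were higher by 2.82 ± 0.18 (SE) and 2.08 ± 0.21 (limma adjusted p = 0.00176 and 0.0034). Itgb4 read 11.64, 11.67 and 11.25 in the basal arrays against 8.39, 8.88 and 8.84 in the non-basal ones, with no overlap. Itga3, the other epithelial laminin receptor subunit, was higher by 2.09 ± 0.16, and Itga2, a collagen and laminin receptor subunit, by 2.91 ± 0.31. The syndecans Sdc1 and Sdc4, cell surface proteoglycans, were higher by 1.81 and 0.66, and Bcam, a receptor for the alpha 5 chain, by 1.59 ± 0.20 (limma adjusted p = 0.00535). The receptor subunits that were lower were Itga1 (-1.62 ± 0.24) and Itga7, the subunit of muscle laminin receptors (-0.89 ± 0.11; limma adjusted p = 0.0049). Itga7 was not above the dim reference in any of the 3 basal arrays, so its fold is a bound, at least 1.52-fold lower against the reference. Itga1 was not above the reference in 1 basal array. Itgb1, the beta subunit that pairs with alpha 3, 6 and 7, had a difference of 0.33 (limma adjusted p = 0.0887), and Dag1, which encodes dystroglycan, 0.087 (adjusted p = 0.4). Calls of 8 of these 9 genes held with any 1 array left out, and that of Itga1 was lost without basal replicate 2 (adjusted p = 0.0554).

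The list of genes for hemidesmosomes, which anchor keratin filaments to the basement membrane, also held a keratin gene, Krt14. Of its 6 measured members 5 were higher, with a median of 1.54, and 0 were lower in limma (6 lay at an unadjusted p under 0.05, all higher). The share of all genes at an unadjusted p under 0.05 was not counted, here or for the lists below. Besides Itga6 and Itgb4 these were the keratin gene Krt14 (3.40 ± 0.54; limma adjusted p = 0.0118), the linker gene Plec (1.00 ± 0.18) and Col17a1, a transmembrane collagen (0.97 ± 0.16). The tetraspanin gene Cd151 had a difference of 0.41 (adjusted p = 0.0602). The calls of Krt14, Plec and Col17a1 were lost without basal replicate 1 (limma adjusted p = 0.0617, 0.0689 and 0.0679) or basal replicate 2 (0.0663, 0.075 and 0.0638). Those of Plec and Col17a1 were also lost without non-basal replicate 2 (0.0636 and 0.0614), and that of Plec without non-basal replicate 3 (0.071).

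The proteins that laminins bind in the basement membrane went both ways, with 5 of 19 genes higher, 11 lower and 3 not passing (median -0.82). The nidogen genes Nid1 and Nid2, which link laminin to type IV collagen, were lower by log2 differences of -2.71 ± 0.25 (SE) and -2.37 ± 0.25 (limma adjusted p = 0.00266 and 0.00361). Nid1 read 9.17, 9.67 and 10.09 in the basal arrays against 12.09, 12.48 and 12.47 in the non-basal ones. The fractions did not overlap, and basal replicate 1 was the lowest array. Agrn, a heparan sulphate proteoglycan that binds the laminin coiled coil, was higher by 2.02 ± 0.14 (adjusted p = 0.00197), as was Tinagl1, a matrix glycoprotein, by 1.73 ± 0.12. The type IV collagen chains split, with Col4a1, Col4a2 and Col4a5 at -1.80, -1.39 and -0.82 and Col4a3 and Col4a4 at 0.77 and 1.01. Col7a1, the anchoring fibril collagen, was higher by 1.41 ± 0.14 (limma adjusted p = 0.0033). Col15a1 and Col18a1, basement membrane collagens, were lower at -2.95 and -0.46, as were Sparc (-1.52), Smoc1 (-1.81), Fbln1 (-1.27) and Egflam (-1.76), secreted matrix proteins. Egflam was not above the dim reference in any of the 3 basal arrays and was at least 2.14-fold lower against it. Of these 16 calls 10 held with any 1 array left out, and those of Col4a3, Col4a4, Col4a5, Col18a1, Fbln1 and Smoc1 were each lost when basal replicate 1, basal replicate 2 or else non-basal replicate 3 was left out. In this set, those other than Col4a4 were also lost without non-basal replicate 2, those of Col4a5 and Fbln1 without basal replicate 3 and that of Col18a1 without non-basal replicate 1. Without non-basal replicate 3 their limma adjusted p-values were 0.117, 0.0694, 0.119, 0.121, 0.111 and 0.107.

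**Figure D3:**
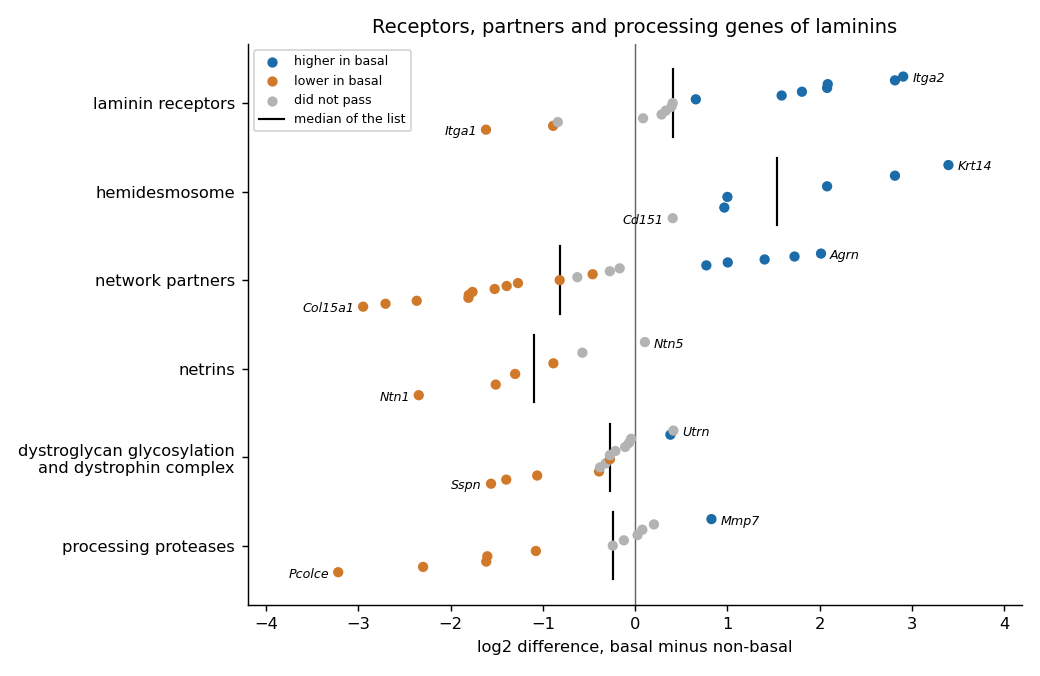
Log2 difference (basal minus non-basal, x axis) of each measured gene in 6 lists of laminin partners, with blue and orange for genes higher and lower in limma, grey for genes that did not pass and a black line at the median of each list; the names are those of the lowest and highest gene. Laminin receptors and hemidesmosome genes have medians of 0.41 and 1.54, and the other 4 lists have medians of -1.09 to -0.24.

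Netrins, secreted or membrane-tethered proteins with laminin-type short-arm domains, were lower in 4 of 6 genes, and 0 were higher in limma (5 lay at an unadjusted p under 0.05, all lower). The log2 difference of Ntn1 was -2.34 ± 0.17 (SE; limma adjusted p = 0.00206), that of Ntn4, which binds laminin gamma chains, -0.89 ± 0.094, that of Ntng1 -1.51 ± 0.21 and that of Ntn3 -1.30 ± 0.18. Ntn1 was not above the dim reference in 1 of 3 basal arrays. Ntn3 and Ntng1 were not above it in any of the 3. Against the reference Ntn3 was at least 1.83-fold lower, and no fold is given for Ntng1, which was not above it in 1 non-basal array either. The call of Ntn3 was lost without basal replicate 2 (adjusted p = 0.0506) or non-basal replicate 3 (0.0505), and that of Ntng1 without non-basal replicate 3 (0.0509). Among 14 genes of dystroglycan glycosylation, the sugar modification through which alpha chains bind dystroglycan, and of the dystrophin complex, 8 did not pass, 5 were lower and 1 was higher (median -0.27). The sarcoglycan gene Sgcb was lower at -1.06 ± 0.092 (limma adjusted p = 0.0025), Dmd, which encodes dystrophin, at -1.40 ± 0.18, Sspn at -1.56 ± 0.34, and the glycosylation genes Rxylt1 and B4gat1 at -0.39 and -0.27. The glycosylation gene Pomgnt1 was higher by 0.38 ± 0.072. Sspn and B4gat1 were each not above the dim reference in 1 basal array. The calls of Sgcb and Dmd held with any 1 array left out. Those of Sspn, Rxylt1, B4gat1 and Pomgnt1 were lost without basal replicates 1 or 2 or non-basal replicates 2 or 3, with limma adjusted p-values of 0.132, 0.0508, 0.143 and 0.0813 without non-basal replicate 3, and that of B4gat1 also without non-basal replicate 1 (0.0674).

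Of 11 genes for proteases that can cut laminins or for proteins that act with such proteases, 5 did not pass, 5 were lower and 1 was higher (median -0.24). The list includes Pcolce, whose action on laminins was not tested. In 1 basal array Pcolce was not above the dim reference. Pcolce, an enhancer of tolloid proteases, was lower at -3.22 ± 0.37 (SE; limma adjusted p = 0.00444), the tolloid-like protease gene Tll1 at -1.61 ± 0.21, for which 2 of 3 basal arrays were not above the dim reference, the plasminogen activator gene Plat at -1.07 ± 0.17, Mmp2 at -2.30 ± 0.50 and Htra1 at -1.60 ± 0.32. Mmp7, an epithelial matrix metalloproteinase, was higher by 0.83 ± 0.17 (adjusted p = 0.0243). Bmp1, a tolloid protease that trims laminin chains, had a difference of 0.079 (adjusted p = 0.818). The calls of Pcolce and Tll1 held with any 1 array left out, whereas those of Plat, Mmp2, Htra1 and Mmp7 were lost without basal replicates 1 or 2 or non-basal replicate 2 (limma adjusted p = 0.0599, 0.11, 0.0789 and 0.0848 without the latter). Those of Htra1 and Mmp7 were also lost without basal replicate 3 (0.053 and 0.0546), and those of Plat, Mmp2 and Htra1 without non-basal replicate 3 (0.0679, 0.133 and 0.106).

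Markers of several cell types also differed between the fractions. All 11 measured epithelial basal markers were higher, as the label of the fraction has it, with list means of 10.51 to 10.85 in the basal arrays against 7.69 to 8.44 in the non-basal arrays. All 12 fibroblast markers were lower, with list means of 7.07 to 8.84 against 11.00 to 12.02, and 7 of the 12 stayed above the dim reference in all basal arrays. Endothelial markers were lower in 9 of 9 genes (6.89 to 7.30 against 8.48 to 8.65), smooth muscle markers in 7 of 10 (8.44 to 8.99 against 10.12 to 10.19), pericyte markers in 6 of 8 (7.54 to 7.97 against 9.06 to 9.34) and leukocyte markers in 6 of 12 (6.88 to 7.19 against 7.82 to 8.88). In limma 0 of 11 principal cell markers and 0 of 8 narrow and clear cell markers passed (2 and 0 lay at an unadjusted p under 0.05). Principal cell list means were 10.20 to 11.28 in the basal arrays against 11.00 to 11.39 in the non-basal arrays. Those of the narrow and clear cell list were 8.67 to 8.99 against 8.74 to 9.36. All 11 principal cell markers were above the dim reference in every array, as were 7 of 8 narrow and clear cell markers. Of 10 Schwann cell and nerve markers 1 was higher, Mbp (1.12), and 0 were lower in limma (2 of the 10 lay at an unadjusted p under 0.05). Krt14, Col17a1 and Itgb4 stand in both the hemidesmosome list and the epithelial basal list. The part of these cell types in the differences of the laminin chains and their partners was not tested.

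**Figure D4:**
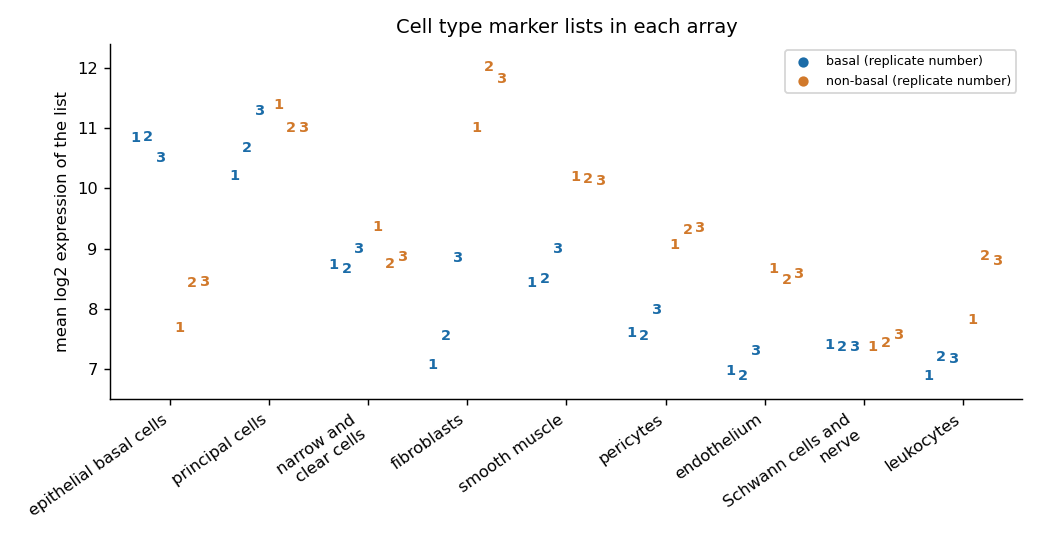
Mean log2 expression (RMA units, y axis) of 9 marker lists in each array, with blue digits for basal and orange digits for non-basal replicates. Basal replicate 3 has the highest basal mean of fibroblast markers (8.84) and the lowest basal mean of epithelial basal markers (10.51), and non-basal replicate 1 has the lowest non-basal means of both lists (11.00 and 7.69).

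Within the basal fraction, replicate 3 was the array nearest to the non-basal mean in 6 of the 8 laminin chains. Within the non-basal fraction, replicate 1 was nearest to the basal mean in 5 of 8. Leaving out both arrays gave differences of -4.46 for Lama2, -3.07 for Lama4, 1.15 for Lama5, 1.38 for Lama3, 3.32 for Lamb3, -0.71 for Lamb2 and -1.79 for Lamc3, and the same 3 chains higher and 4 lower.

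Genes whose profile over the 6 arrays was closest to that of the outermost chains were found by the Euclidean distance between gene-centred log2 values. For Lamb3 these were Krt14 (distance 0.54), Krt15 (0.60), Fxyd3 (0.76), Anxa8 (0.81) and Tp63 (0.98). For Lama2 they were Postn (0.26), Htra3 (0.27), Dpep1 (0.43), Tfpi2 (0.43) and Cd7 (0.49). Krt14, Krt15 and Tp63 are also in the list of epithelial basal markers, and Postn is in that of fibroblasts. The 6 arrays fall into 2 groups, so that the distances mostly compare the size of the difference between the fractions.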

How the data were processed

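Total RNA of 3 basal and 3 non-basal arrays was measured. The deposited values are log2 expression values, 1 per probe set and array, made by the authors with RMA; the submitters' processing notes name Affymetrix Expression Console. Versions and genome build are not given in the sources used here. RMA matches the probe distributions of arrays, so a shift of most genes would be lost, and it compresses dim and bright signals. Values ran from 1.46 to 14.33, with array medians of 6.63 to 6.70; the number of arrays limits precision.

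Of 36685 probe sets, 18511 carried 1 symbol in the platform annotation. Where a gene had several, the brightest on average stood for it. All 8 measured members matched RefSeq by Entrez identifier. Differences were fitted without a replicate block over all 18166 genes with lmFit and eBayes of limma 3.58.1 (R 4.3.3), two-sided, adjusted by Benjamini-Hochberg, and called at an adjusted p under 0.05. The fit was tested on simulated data.

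The members, gene lists and dim reference were chosen with earlier results of these data known. Named were all chains, the 3 genes of each list with the smallest p, each receptor or network partner that passed, and the 5 nearest profiles of the outermost chains. Lama1, Itgb1, Dag1, Cd151, Plec, Col17a1, Ntn3, Sspn, B4gat1, Pomgnt1, Mmp2, Htra1, Mmp7, Bmp1, Plau and Mbp were added after their values were seen. Itga6, Itgb4 and Cd151 stand in 2 partner lists, and Cspg4 is a receptor and a pericyte marker. The 2 planned ratios with Lamb1 were not run. Alternatives were a replicate block, quantile normalization, centring, array weights, filters that kept genes averaging at least 5 or 7 in a fraction, a robust fit with an intensity trend, means over probe sets, all probe sets, thresholds of 0.01 and 0.1, and arrays left out. Values under the dim reference were also raised to it, without a new test.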

Additional observations from a re-analysis of the deposited data

How the results depend on the processing

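Lama2, Lama3, Lama4, Lamb3 and Lamc3 kept their direction and call under all 10 alternatives to the fit, and with each of the 6 arrays left out. Lama5 kept them under the same 10, but its call held in only 2 of the 6 fits that each left out 1 array. Its differences in those 6 fits were 0.82 to 1.07. Same-numbered arrays of the fractions deviated together only weakly (correlations of 0.031, 0.038 and 0.028 over genes), so the numbers were not taken as pairs. With the replicate number as a block, Lamb2 stayed at -0.62 with a limma adjusted p of 0.0506, and 3 chains were higher and 3 lower; each basal array correlated best with the non-basal array of its own number, a hint from the data only, and the block changed no other call of a chain. Over all genes the block gave 982 higher and 1027 lower, and over the partner genes 15 and 21; the partner calls it ended were those of B4gat1, Col18a1, Col4a3, Col4a5, Fbln1, Pomgnt1, Rxylt1 and Sspn (adjusted p of 0.056 to 0.10). Lamb2 ranged from -0.75 to -0.52 with 1 array left out, and its call held in 1 of these 6 fits. Lamc1 ranged from -0.39 to 0.027, reversed without non-basal replicate 2.

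Over all genes, 1401 higher and 1297 lower became 2868 and 2323 with array weights, 491 and 556 at an adjusted p under 0.01, 2499 and 2124 with basal replicate 3 and non-basal replicate 1 both removed, and 509 to 2068 and 542 to 1607 with 1 array left out. Of 68 distinct partner genes, 17 were higher and 27 lower; these were 10 and 17 at an adjusted p under 0.01, and 10 to 19 and 15 to 28 with 1 array left out. Bmp1 turned to -0.033 with array weights, -0.10 with the 2 arrays removed and ranged from -0.14 to 0.24 with 1 array left out; Plau turned to -0.032 after quantile normalization, -0.013 with the 2 arrays removed and ranged from -0.091 to 0.14 with 1 array left out. The causes were not tested. Raising values to the dim reference, chosen after seeing the data, kept the direction of every called chain and partner and moved Egflam, Itga7, Ntn3 and Ntng1 beyond the spread between arrays, to -1.10, -0.61, -0.87 and -0.20. Quantile normalization and centring moved the median of all genes to -0.029 and -0.011. The 2 removed arrays were chosen with earlier results known.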
